A study of Mus musculus with 2 samples.

Results

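KLF6 sites close to the starts of 7 protein-coding genes, Polr3e, Ndufs7, Sacm1l, Fmc1, Agbl5, Wbp4 and Ctnna3, were examined in cells of a mouse liver cancer line (hepatocellular carcinoma, HCC). Sites had been mapped by chromatin immunoprecipitation and sequencing (ChIP-seq), in which DNA bound to a protein is pulled down with an antibody and sequenced. The genes were chosen by the measured distance in the first of 2 experiments, where each had a site whose summit lay within 1 kb of the gene's start, and with their position beside tRNA genes already known. Experiment 1 assigned 7 of its 742 sites to these genes, and experiment 2 assigned 0 of its 901. Both samples came from HCC cells that had been transfected with a plasmid for full-length KLF6 carrying a V5 tag. The KLF6 ChIP sample was precipitated with an antibody against V5, and the input sample was DNA of such cells without precipitation. Each group was 1 sample, sequenced in replicate experiments, of which experiment 1 pooled 2 runs. The tagged protein was brought in by the plasmid, so the sites are those of introduced KLF6, and precipitated DNA of cells without the tag was not analysed here. The name of the cell line is not given in the sources used here. The lists hold no expression values against which the labelled cell type could be checked.

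KLF6 is a Krüppel-like factor, a zinc finger protein known to bind GC-rich elements such as GC boxes and CACCC boxes, which are common in promoters of widely expressed genes. Transfer RNA (tRNA) genes are transcribed by RNA polymerase III from promoter elements inside the gene, the A box and the B box, to which the factor TFIIIC binds. Most of the 7 genes serve basic cell functions. Polr3e encodes a subunit of RNA polymerase III itself, Ndufs7 an iron-sulfur subunit of respiratory complex I, Fmc1 an assembly factor of the mitochondrial ATP synthase, Sacm1l a phosphoinositide phosphatase of the endoplasmic reticulum and Golgi, Agbl5 an enzyme that removes glutamate side chains from tubulin, and Wbp4 a WW domain protein of the spliceosome. Ctnna3 encodes alpha-T-catenin, which is known from cell junctions of heart muscle and from testis, so the name housekeeping does not suit it. No expression was measured in these files for any of them.

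The promoter sequences are shown because each site lay on or upstream of a gene start, with its summit within 1 kb. RefSeq windows from 250 bases before to 50 bases after the start were found for all 7 genes (build GRCm38.p6, which is not the build of the sites). The windows do not cover all the sites. By their starts in mm9, the build of the sites, those of Fmc1 and Ctnna3 ended 581 and 379 bp upstream, farther than the windows reach. Of the 7 summits only that at Ndufs7, 109 bp upstream, lay within 250 bp of the start. The starts of both builds were not compared. For Polr3e and Ndufs7 the window held a B box core, Wbp4 had the most GC boxes in a single window, and Ctnna3 had the most enriched site. The 250 bases before the start of each follow, 5′ to 3′ along the gene, for the first window listed. Capitals mark matches on either strand to any of 3 motifs. The GC box was searched as GGGCGG, the form known from promoters of widely expressed genes. The element that erythroid Krüppel-like factors are known for was searched as CCACCC, named the CACCC box. For the B box of tRNA genes the conserved core was searched, spelled GGTTCGA.
Polr3e, chr7:120917528-120917777, plus strand: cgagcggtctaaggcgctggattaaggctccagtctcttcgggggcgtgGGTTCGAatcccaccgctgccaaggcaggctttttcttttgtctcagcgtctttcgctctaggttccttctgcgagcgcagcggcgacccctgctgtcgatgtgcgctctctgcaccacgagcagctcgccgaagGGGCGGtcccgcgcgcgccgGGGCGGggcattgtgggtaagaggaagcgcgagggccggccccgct
Ndufs7, chr10:80249199-80249448, plus strand: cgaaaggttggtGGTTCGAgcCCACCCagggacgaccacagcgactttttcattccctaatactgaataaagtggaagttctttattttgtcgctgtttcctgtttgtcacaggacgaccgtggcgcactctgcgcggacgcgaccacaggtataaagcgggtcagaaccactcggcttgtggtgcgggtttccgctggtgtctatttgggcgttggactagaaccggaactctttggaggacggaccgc
Wbp4, chr14:79481269-79481518, minus strand: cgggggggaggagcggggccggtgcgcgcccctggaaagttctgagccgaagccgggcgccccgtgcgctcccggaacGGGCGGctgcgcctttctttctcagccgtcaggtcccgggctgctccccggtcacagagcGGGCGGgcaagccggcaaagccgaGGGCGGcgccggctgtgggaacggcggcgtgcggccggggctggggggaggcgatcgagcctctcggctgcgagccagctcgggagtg
Ctnna3, chr10:63429848-63430097, plus strand: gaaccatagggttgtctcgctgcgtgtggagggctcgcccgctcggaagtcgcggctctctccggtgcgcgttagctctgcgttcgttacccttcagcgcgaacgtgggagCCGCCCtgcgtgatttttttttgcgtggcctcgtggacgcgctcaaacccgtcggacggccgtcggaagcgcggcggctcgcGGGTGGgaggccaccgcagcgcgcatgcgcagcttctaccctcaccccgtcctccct

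The B box core was found in windows of 2 of the 7 genes, Polr3e and Ndufs7, and in those of 1.18% of 17492 protein-coding genes with a window. Because the genes were chosen with tRNA neighbours known, and the B box is an element of tRNA genes, this contrast depends on the choice. Whether the matches belong to the neighbouring tRNA genes was not tested. It began 201 bases before the RefSeq start of Polr3e and 238 bases before that of Ndufs7, in both on the strand of the gene. A GC box was present in windows of 5 of the 7 genes (Polr3e, Fmc1, Agbl5, Wbp4 and Ctnna3) against 49.2% of protein-coding genes. A CACCC box was present in 5 of 7 (Ndufs7, Sacm1l, Fmc1, Agbl5 and Ctnna3) against 36.2%. The match of Ndufs7 began 229 bases before its start, close to its B box core, and Agbl5 had the motif in a further window alone. Wbp4 had 3 GC boxes, beginning 172, 112 and 88 bases before its start, and Polr3e had 2, at 66 and 46 bases. The sites of Wbp4 and Polr3e ended 245 and 141 bp upstream of the mm9 starts, so by these distances the GC boxes lay outside them. Each of the 7 genes thus had a GC box or a CACCC box in a window, and Fmc1, Agbl5 and Ctnna3 had both. The share of protein-coding genes with either motif was not counted, so this count has no background beside it. The only such match of Sacm1l lay past the start, at base 26. In a further window of Agbl5 the motifs overlapped by some of their letters. Other motifs were rarer among them. The CCAAT box (CCAAT) was found in 3 genes (42.3% of protein-coding genes), the TATA box (TATAAA) in 2 (14.8%), the NRF1 core (GCATGCGC) in Ctnna3 (3.94%) and the ETS core (CCGGAAG) in 0 (12.9%). The CCAAT and TATA boxes of Ctnna3 were in a further window alone. That window begins at 63820805 on chromosome 10, far downstream of the first, which begins at 63429848. The first windows were between 56.3% GC, at Ndufs7, and 75.3%, at Wbp4, and the median of protein-coding genes was 56.3% (interquartile range 47.9 to 64.3). A match of letters is not a measured site. Agbl5 and Ctnna3 had several RefSeq starts, all of which were searched, which gives these genes more letters in which to match.

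The 7 sites are described next with the authors' values. The tag count is the number of sequence tags at the site, the fold is the peak caller's enrichment, the score is 10 times the −log10 of its p-value, and the false discovery rate (FDR) has a highest value of 100%. Sites and gene starts are in build mm9. All 7 summits lay upstream, from 109 to 897 bp before the start. Beside this, 18 of all 29 sites within 1 kb of a start in experiment 1 lay upstream (3.91% of the 742 sites were that close). The rule fixed the distance but not the side, although both come from the same deposited column.

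**Figure D1:**
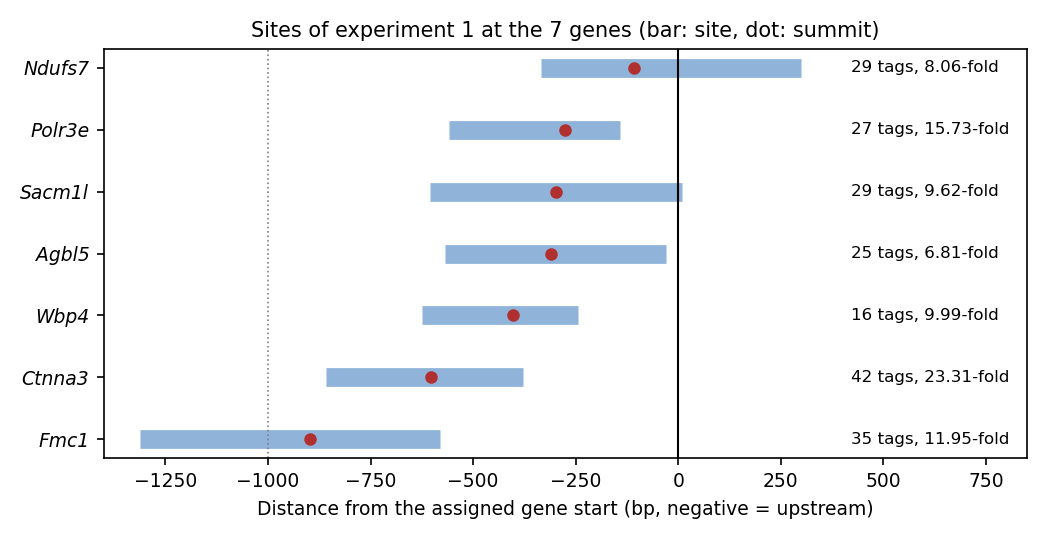
Extent (bar) and summit (dot) of the site of experiment 1 at each gene, as distance in bp from the start of the assigned gene, with upstream to the left; the solid line is the start and the dotted line lies 1 kb upstream. All 7 summits sit left of the start, and the bars of Ndufs7 and Sacm1l reach over it.

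Polr3e had its site on chromosome 7 from 128060772 to 128061190 (418 bp), upstream of the gene, which spans 128061331 to 128089760 on the plus strand. The site held 27 tags at 15.7-fold, with a score of 138.84 and an FDR of 17.2%. Its summit lay 275 bp upstream and its edges 559 and 141 bp upstream, so it ended short of the start. The stretch from 559 to 141 bp upstream takes in the distance of 201 bases at which the B box core was found, but the starts of both annotations were not compared. It was the second most enriched of the 7 sites.

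The mitochondrial genes came next in role. At Ndufs7 the site spanned 79711531 to 79712165 on chromosome 10 (634 bp) and covered the start at 79711866. It held 29 tags at 8.06-fold with an FDR of 100%. Its summit was the closest to a start, at 109 bp upstream, and it ran from 335 bp upstream to 299 bp downstream. At Fmc1 the site was the widest, from 38483528 to 38484260 on chromosome 6 (732 bp), with 35 tags at 11.95-fold and an FDR of 100%. Its summit was the farthest, at 897 bp upstream of the start at 38484841, and its near edge lay 581 bp upstream. The sites of both genes had similar tags, and they differed in how they lay to the start.

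Sacm1l and Agbl5, which encode enzymes, had sites of similar placement. The site of Sacm1l spanned 123438295 to 123438909 on chromosome 9 (614 bp) and held 29 tags at 9.62-fold, with an FDR of 100%. Its summit lay 299 bp upstream and its edge passed the start at 123438900 by 9 bp. The site of Agbl5 spanned 31190656 to 31191195 on chromosome 5 (539 bp), ended 30 bp before the start at 31191225, and had its summit 311 bp upstream. It held 25 tags at 6.81-fold, the lowest fold of the 7, with an FDR of 100% and a score of 51.96, close to the lowest score of the list (50.02 at rank 742).

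Wbp4, the splicing gene, and Ctnna3, the catenin gene, stood at opposite ends of the tag counts. The site of Wbp4 was the narrowest, from 79881320 to 79881700 on chromosome 14 (380 bp), upstream of a start at 79881075 on the minus strand. It held 16 tags at 9.99-fold with an FDR of 100%, and its summit lay 403 bp upstream. The site of Ctnna3 spanned 62891987 to 62892467 on chromosome 10 (480 bp), with its summit 603 bp upstream of the start at 62892846. It held 42 tags at 23.3-fold, with a score of 265.52 and an FDR of 3.03%, the highest values and lowest FDR of the 7. The Ctnna3 gene runs over more than a megabase, to 64466415, and no other site of either list was assigned to it.

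The sites were moderate calls within their list. The 7 had a median of 29 tags (16 to 42), a median fold of 9.99 (6.81 to 23.3) and a median width of 539 bp, against 21 tags, 7.17-fold and 554 bp over all 742 sites. By score they ranked 33 (Ctnna3), 87 (Polr3e), 186 (Fmc1), 243 (Sacm1l), 274 (Wbp4), 466 (Ndufs7) and 610 (Agbl5). Ctnna3 and Polr3e were thus the strong ones, and Ndufs7 and Agbl5 lay in the lower-scoring part of the list. An FDR below 100% was given to 2 of the 7, Polr3e and Ctnna3 (28.6%), and to 21.3% of the list. Tags divided by fold gave a quotient of 1.6 to 3.67 per site. Per kb this quotient was 3.75 to 6.81 with a median of 4.21, and 5.2 over the list. It assumes that the tags are those of the ChIP library. The fold also did not follow the tag count of the whole site alone, since sites of 21 and of 25 tags were both given 13.32-fold. The quotient is therefore not a measured background. The contrast that gave these values also chose the genes, so they describe the sites and were not tested.

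**Figure D2:**
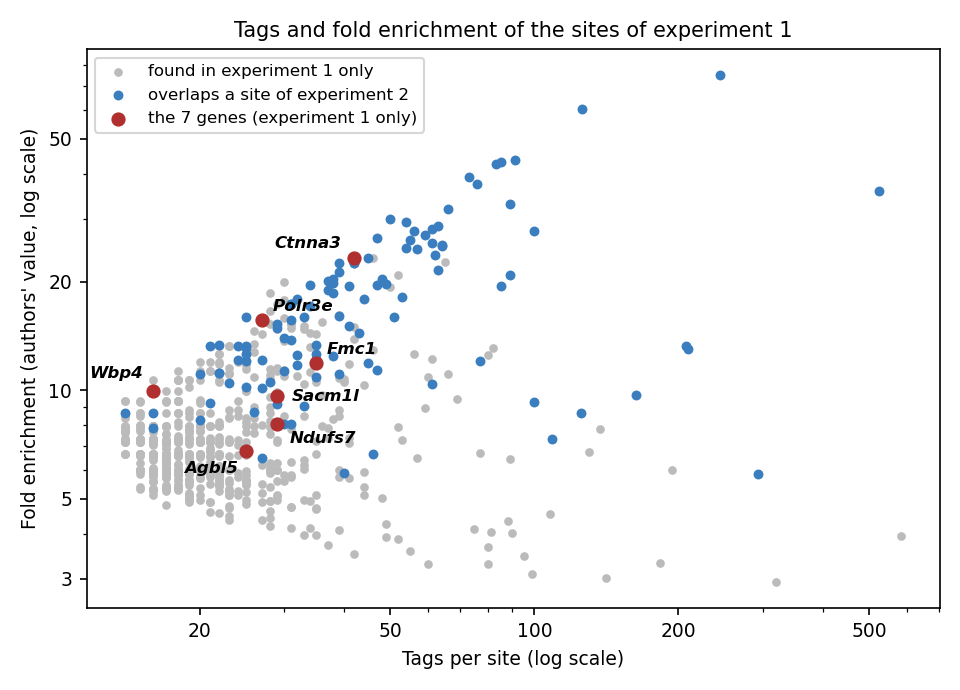
Tags (horizontal) and the authors' fold enrichment (vertical) of each of the 742 sites of experiment 1, on log scales; blue sites overlap a site of experiment 2, and red marks the 7 genes. The 7 genes span 16 to 42 tags and 6.81-fold to 23.3-fold, with Ctnna3 among mostly blue sites and Agbl5 among mostly grey ones.

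The distance rule was set against its neighbours. Of the 29 sites within 1 kb of a start, 12 carried a gene symbol, and the 7 genes were among these 12. The other 5 were Klf6, the gene of the factor itself (194 tags, 6.01-fold, FDR 1.64%), Trim29, a tripartite motif gene (16 tags, 10.66-fold), the olfactory receptor genes Olfr792 and Olfr406 (6.66-fold and 5.56-fold), and Hist2h4, a histone H4 gene (8.2-fold). The summits of 3 of these 5 lay upstream. That of Klf6 lay inside the gene, 225 bp past the start, and the cells carried a plasmid for full-length KLF6. Whether tags of the Klf6 site came from plasmid DNA was not tested. The nearest to the limit on the inside were Fmc1 at 897 bp, Trim29 at 669 bp and Ctnna3 at 603 bp. The nearest outside were Olfr207 at 1472 bp (4.93-fold), Npy5r, a neuropeptide Y receptor gene, at 1481 bp (42.5-fold), and Npbwr1, a neuropeptide receptor gene, at 1579 bp (11.3-fold). No site with a symbol lay between 897 and 1472 bp. For the other 17 sites within 1 kb the assigned feature had no symbol, among them the genes for myoneurin (11.45-fold, 781 bp upstream) and peroxisomal biogenesis factor 12 (7.6-fold, 469 bp upstream). The 17 also included features of 5S ribosomal RNA and of U1 and U2 spliceosomal RNA, and a histone H4 gene.

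Experiment 2 was then searched for the same places. None of the 7 sites overlapped a site of experiment 2 by 1 bp or more, where 14.7% of all sites of experiment 1 did, and experiment 2 assigned 0 sites to these genes at any distance. The other 5 sites with a symbol within 1 kb of a start were likewise in experiment 1 alone, while 6 of the 17 without a symbol overlapped. The nearest site of experiment 2 lay 67.5 kb from the summit at Sacm1l, 327 kb from that at Agbl5, 1.07 Mb at Ndufs7, 2.01 Mb at Ctnna3, 2.37 Mb at Wbp4, 4.25 Mb at Polr3e and 4.57 Mb at Fmc1. The one near Sacm1l was itself shared. It was assigned to ENSMUSG00000078303, whose start it neighbours, and held 209 tags (13.1-fold, FDR 7.14%) in experiment 1, where the Sacm1l site held 29. Experiment 2 gave the shared site 97 tags (7.46-fold, FDR 100%). A shared site was thus called 67.5 kb away while the Sacm1l site was not called again.

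How often sites of like score were found again differed along the ranking, so each gene was set beside its neighbours in rank. Of the 20 sites nearest in score rank to Ctnna3, 17 overlapped a site of experiment 2. Of the 20 nearest to Polr3e 6 did, and of those nearest to Fmc1, Sacm1l, Wbp4, Ndufs7 and Agbl5 4, 2, 1, 1 and 0 did. Absence from experiment 2 therefore sets Ctnna3 apart from most sites of its rank, and for Ndufs7, Wbp4 and Agbl5 it is shared with nearly all of them. The sources used here give no read totals, so depth is unknown and its part in the absence was not tested. The median site of experiment 2 held 11 tags, and the lowest count was 9.

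**Figure D3:**
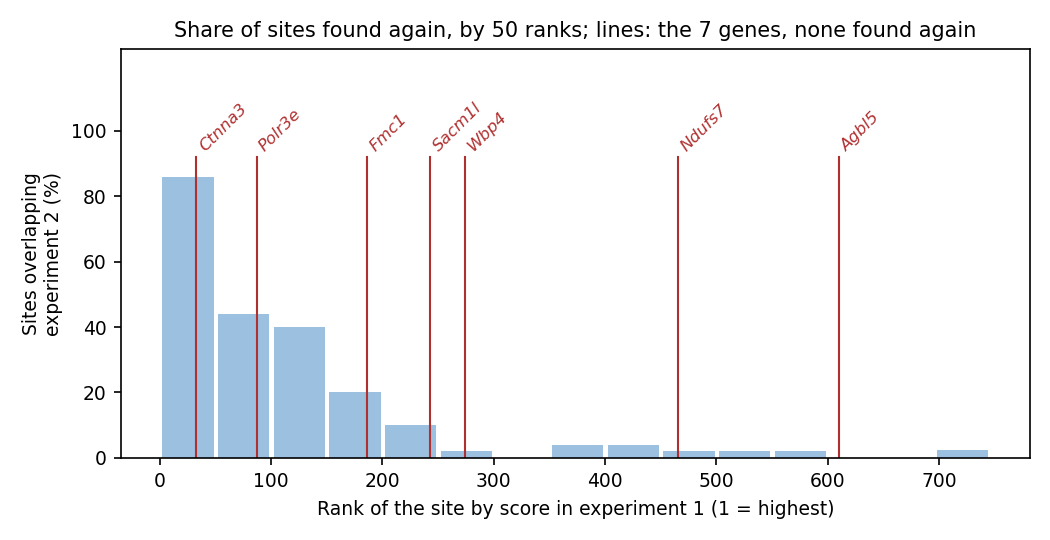
Bars give the percentage of sites of experiment 1 that overlap a site of experiment 2, in groups of 50 by score rank (horizontal axis, highest score first); red lines mark the ranks of the 7 genes. The first 50 ranks, which include Ctnna3, reach 86.0%, and ranks 601 to 650, which include Agbl5, are at 0.

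The neighbourhood of tRNA genes was read from the order of genes in a RefSeq table of GRCm38.p6, which lists 408 tRNA genes among 49943 genes on the chromosomes used. All 7 genes had a tRNA gene among the 5 genes on either side, as did 2.9% of 21887 protein-coding genes. The tRNA gene was the next gene on the upstream side, the side of the KLF6 summit, for 6 of the 7. Among 17492 protein-coding genes of known strand, 0.423% had a tRNA gene as the next upstream gene. Since the genes were proposed with tRNA neighbours in view, this is a description. The distance from a site to a tRNA gene was not measured, because tRNA positions in mm9 were not used here, and whether the sites cover the tRNA genes was not tested. The distance between tRNA genes and gene starts, both in GRCm38.p6, was not measured either.

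The tRNA genes differed in the amino acid they serve. Upstream of Polr3e lay n-TLaag4, a leucine tRNA gene with the anticodon AAG, so that a subunit gene of RNA polymerase III neighbours a gene which that enzyme transcribes. In the order of starts, Ndufs7 had n-TFgaa3, a phenylalanine tRNA gene, directly before it and n-TNgtt7, an asparagine tRNA gene, directly after it. This order does not place n-TNgtt7 relative to the start used for the promoter window of Ndufs7. Sacm1l and Fmc1 both had arginine tRNA genes upstream, n-TRacg2 and n-TRcct1, with different anticodons. Agbl5 had n-TAagc15 for alanine and then n-TYgta9 for tyrosine as its next upstream genes. Ctnna3 had n-TStga3, a serine tRNA gene. Wbp4 was the exception to direct adjacency, since Elf1, an ETS factor gene, came first and n-TEttc4, a glutamate tRNA gene, was the second upstream. The genes thus neighboured tRNA genes for leucine, phenylalanine, asparagine, arginine, alanine, tyrosine, serine and glutamate.

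Genes with sites elsewhere were compared in the same way. Of 258 matched genes whose sites in experiment 1 all lay beyond 1 kb of a start, 24 had a tRNA gene among 5 neighbours on either side (9.3%), and 14 had it as the next gene on either side (5.43%). In experiment 2, 13 of 354 matched genes had it among 5 neighbours (3.67%) and 7 next to them (1.98%). The other genes with a symbol and a site within 1 kb in experiment 1 were without such a neighbour, with 0 of the 4 that could be placed. Since the 7 genes were chosen with their tRNA neighbours known, this contrast depends on the choice. Hist2h4 could not be placed, since the table has that symbol on another chromosome than the site.

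**Figure D4:**
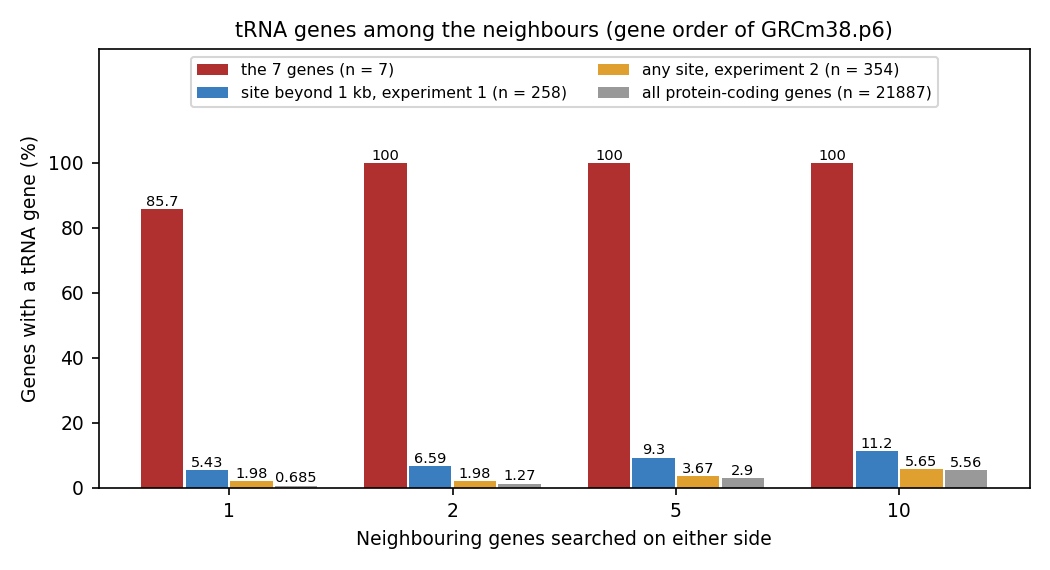
Percentage of genes with a tRNA gene among the 1, 2, 5 or 10 neighbouring genes searched on either side, for the 7 genes, genes with sites beyond 1 kb in experiment 1, genes with any site in experiment 2, and all protein-coding genes (n in the key). The 7 genes, chosen with their tRNA neighbours known, reach 85.7% with 1 neighbour and 100% from 2 on, and the other groups stay at 11.2% or lower.

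Partner genes of the 7 were searched for sites in 7 lists, each built around a gene, to see whether the sites extended to its pathway. Of 179 other genes in the lists, 2 had a site with a symbol in either experiment (1.12%), against 2.23% of all protein-coding genes. The 30 other genes of RNA polymerase III and its factors had 0, as did 46 other complex I genes, 23 phosphoinositide phosphatase genes, 20 genes of tubulin glutamylation and 28 splicing genes. Among 19 other ATP synthase genes, Atp5h, which encodes a stalk subunit, had a site on chromosome 11 from 115274246 to 115275566, with its summit 6141 bp past the start (80 tags, 12.5-fold, FDR 15.5%). Atp5h was also a gene with a tRNA gene as a direct neighbour. Among 13 other catenin and cadherin genes, Cdh5, the cadherin of endothelial cells, had a site 182 kb upstream (20 tags, 6.66-fold, FDR 100%). Both were found in experiment 1 alone. Sites without a symbol are not in these counts, which makes them lower limits.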

How the data were processed

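Per the labels, ChIP DNA of V5-tagged KLF6 and input DNA of a mouse HCC line were sequenced. The authors deposited a list of sites for each experiment. The submitters' processing notes name MACS 1.3.6 and mm9 without a role. The aligner is not given in the sources used here, and without read totals the depth is unknown. Per the file headers, each site has a tag count, a score (10 times the −log10 p-value), a fold enrichment, a ratio that was taken as ChIP over expected background, and an FDR in percent, all computed by the authors. Deposited distances equalled summit minus gene start, with the sign turned for genes on the minus strand. Site width is end minus start.

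Sites were matched to the 7 genes by symbol, and sites overlapping by 1 bp counted as found in both experiments. Symbols matched the RefSeq table of GRCm38.p6 for 269 of 276 in experiment 1 and 354 of 364 in experiment 2, on the same chromosome, including older names. It served for gene order and promoter windows alone. Genes named beside the 7 were the 3 nearest inside and outside the distance limit, others within it and pathway genes with a site. The genes detailed under the other observations fell outside this rule. Myoneurin, peroxisomal biogenesis factor 12 and the other features without a symbol were named after their values were seen. Genes, lists and motifs were chosen with earlier results of these data known. With 1 sample per group, no test was made. Overlap and neighbour routines were tested on simulated data. Python 3.11.15 and pandas 2.3.3 were used.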

Additional observations from a re-analysis of the deposited data

How the results depend on the processing

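Of 19 alternatives, 4 were chosen after seeing the data, and 14 of the 19 kept the count within 1.5 times (or the median fold within 1 SD of the 7 sites, 5.68). With sites of FDR below 100% alone, 2 of the 7 sites within 1 kb remained and the median fold was 19.5, as the lower-scoring sites drop out. One site of experiment 2, near Sacm1l, lay within 100 kb (1 gene in place of 0). Within 2000 bp, 19 sites with a symbol lay near a start in place of 12, as the wider window implies. Experiment 2 alone gave 0 pathway genes with a site in place of 2. No paired analysis was possible because each group had 1 sample and the lists give no values per library. The unknown depth sets what absence from experiment 2 can show.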

Other observations

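Beyond the 7 genes, 24 genes of experiment 1 had a tRNA gene among 5 neighbours on either side. Their 25 sites lay 6.14 to 498 kb from the start (median 19.8 kb) at a median of 10.4-fold. Of these sites, 7 overlapped a site of experiment 2, and 0 of the 7 promoter-near sites did, beside 14.7% of all sites of experiment 1. Overlap differed along the score ranking, and the ranks of both sets were not compared. The difference was not tested. The 7 shared sites were assigned to Abt1, Btn2a2, Fam71f1, Fam83a, Hes7, Hist1h4h and Rab11a. Hist1h4h, a replication-dependent histone H4 gene, had the highest fold of these in experiment 1 (64 tags, 25.1-fold, FDR 4.17%) and 32 tags at 24.1-fold with an FDR of 28.6% in experiment 2. Hes7, a transcription factor gene of somite formation, reached 19.6-fold (34 tags) and 12.1-fold (12 tags). Abt1, which encodes an activator of basal transcription, reached 17.9-fold (32 tags) and 11.04-fold (11 tags). Rab11a, a GTPase gene of recycling endosomes, was at 12.7-fold in both lists with 25 and 10 tags. In experiment 1 the FDR was 26.5% at Hes7, 2.08% at Abt1 and 60.9% at Rab11a, and in experiment 2 it was 100% at all 3. Each of these 4 genes had a tRNA gene as a direct neighbour, and so had Btn2a2 and Fam83a. For Fam71f1 the nearest tRNA gene was neighbour 3. The highest fold of the 7 shared sites in experiment 2 was that of Btn2a2 (25.47-fold).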
